A study of Homo sapiens with 9 samples.

Results

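The nuclear-encoded genes of oxidative phosphorylation were taken from the count table of heat-stressed HEK293T cells by gene symbol. All protein-coding genes whose symbol begins with NDUFA, NDUFB, NDUFC, NDUFS or NDUFV and a number, with UQCR, with COX4 to COX8, or with ATP5F, ATP5M or ATP5P were included, together with SDHA, SDHB, SDHC, SDHD, CYC1, CYCS and ATP5IF1. Pseudogenes were left out. The rule gave 91 genes of the 60664 in the table, and 82 of them had enough reads to be among the 21139 genes tested. By complex the members were 37 of complex I (34 tested), 4 of complex II (4 tested), 10 of complex III (10 tested), 19 of complex IV (14 tested) and 20 of complex V (19 tested), with CYCS, the gene of cytochrome c, standing between complexes III and IV. NDUFA4 and NDUFA4L2 carry the name of complex I but were counted with complex IV, where the NDUFA4 protein is known to sit, and ATP5IF1, which encodes an inhibitor of the ATP synthase, was counted with complex V.

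HEK293T is a human embryonic kidney line that is widely used for transfection, and the study used it to follow how nuclei change shape under heat. RNA was sequenced from 5 conditions. NC cells were untreated and kept at 37 °C, H1 cells were harvested straight after 1 h in a water bath at 43 °C, and H1R1, H1R6 and H1R18 cells had the same 1 h of heat and then 1, 6 or 18 h back at 37 °C. Each condition was sequenced in 2 libraries, apart from H1R18 with 1. All were wild-type cells of the same line, and the labels do not tell whether 2 libraries of 1 condition stem from different cultures, so p-values measure only the spread between these libraries, which may be technical. The H1R18 library has no replicate check of its own and was assumed to vary like the others.

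Oxidative phosphorylation takes electrons from NADH at complex I and from succinate at complex II, passes them through ubiquinone to complex III, by cytochrome c to complex IV and so to oxygen, and uses the proton gradient built on the way to drive ATP synthesis at complex V. Complexes I, III, IV and V hold a few subunits encoded in the mitochondrial genome and many encoded in the nucleus, whose proteins are made in the cytosol and imported, whereas complex II is encoded wholly in the nucleus. The promoters of the nuclear genes are known for binding sites of NRF-1, of the ETS family factor GABP and of YY1.

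The promoters are shown because the rule for the members used names only, so that sequence is a feature it did not fix. Promoter windows of RefSeq (GRCh38.p14, 250 bases before to 50 bases after an annotated start) were found for 71 of the 91 members, in 84 windows. Both strands were searched for fixed letters. The NRF-1 core GCATGCGC stood in 16 of the 84 windows (19.0%), against 3.05% of all 35116 windows in the table. The full NRF-1 palindrome, which is the core with GC before it and so overlaps the core wherever it occurs, stood in 4 windows (4.76%), against 1.24%. The ETS motif CCGGAAG stood in 22 windows (26.2%), against 10.3%, and the YY1 motif AAGATGGCG in 10 windows (11.9%), against 1.75%. The heat shock element, searched as GAANNTTC followed by NNGAA, was found in 0 of the 84 windows and in 0.49% of all windows. A match is a description of the letters and not a bound site, and a missing match says only that these letters are not in the window. The 7 stretches below are 50 bases each, written 5′ to 3′ on the gene's strand with the matched letters in capitals, and belong to members described further on. The first 5 hold the NRF-1 motif or its core, and the last 2 hold the ETS motif at 2 places each, in NDUFS3 once on the other strand. Their positions are chr7:25125401-25125450 (minus strand), chr11:112086743-112086792 (plus), chr10:7788127-7788176 (plus), chr9:122159774-122159823 (minus), chr19:1383813-1383862 (plus), chr2:97646014-97646063 (plus) and chr11:47578960-47579009 (plus), in the order shown.
CYCS: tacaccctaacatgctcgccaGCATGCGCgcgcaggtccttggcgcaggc
SDHD: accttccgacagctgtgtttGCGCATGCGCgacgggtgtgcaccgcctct
ATP5F1C: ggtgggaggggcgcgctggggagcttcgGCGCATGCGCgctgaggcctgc
NDUFA8: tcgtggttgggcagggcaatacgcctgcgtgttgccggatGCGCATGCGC
NDUFS7: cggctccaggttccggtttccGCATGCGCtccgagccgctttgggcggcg
COX5B: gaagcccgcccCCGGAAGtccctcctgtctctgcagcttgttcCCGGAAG
NDUFS3: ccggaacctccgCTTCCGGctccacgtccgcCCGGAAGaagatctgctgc

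The libraries held 3814195 to 6221613 counts. The heat labels were checked on HSPH1 and DNAJB1, chaperone genes that rise with heat, which were 3.68 and 4.74 higher at H1 than in NC on the log2 scale. Of 8 genes known in HEK293T cells 6 were tested, with NEFL at 69.3 to 108 CPM, whereas ALB and AFP of hepatoma cells stayed at or below 0.522 and 0.353 CPM. CPM are counts scaled to equal library size with TMM factors. All 37 genes of the mitochondrial genome had a count of 0 in every library, so the subunits encoded there were not analysed here. In RNA from many cells, fewer cells of a type and less RNA per cell cannot be told apart.

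The share of all counts that fell on the 91 members was 0.733% and 0.773% (NC), 0.748% and 0.740% (H1), 0.784% and 0.768% (H1R1), 0.733% and 0.745% (H1R6) and 0.651% (H1R18). Their summed level was 7356 and 7695 CPM in NC, 7526 and 7491 CPM at H1, 8150.3 and 8064 CPM at H1R1, 7164 and 7324 CPM at H1R6, and 6387 CPM at H1R18. The sum was thus highest in both H1R1 libraries and lowest in the H1R18 library, and the libraries of both conditions lay outside the range of the other 6. Complex V went the same way, with 2719 and 2812 CPM in NC, 2768 and 2763 CPM at H1, 3003 and 3002 CPM at H1R1, 2696 and 2709 CPM at H1R6, and 2257 CPM at H1R18. For complex II the H1R18 sum of 205.5 CPM lay between the H1R6 sums of 208.4 and 202.5 CPM, below the NC sums of 231.7 and 219.2 CPM.

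**Figure D1:**
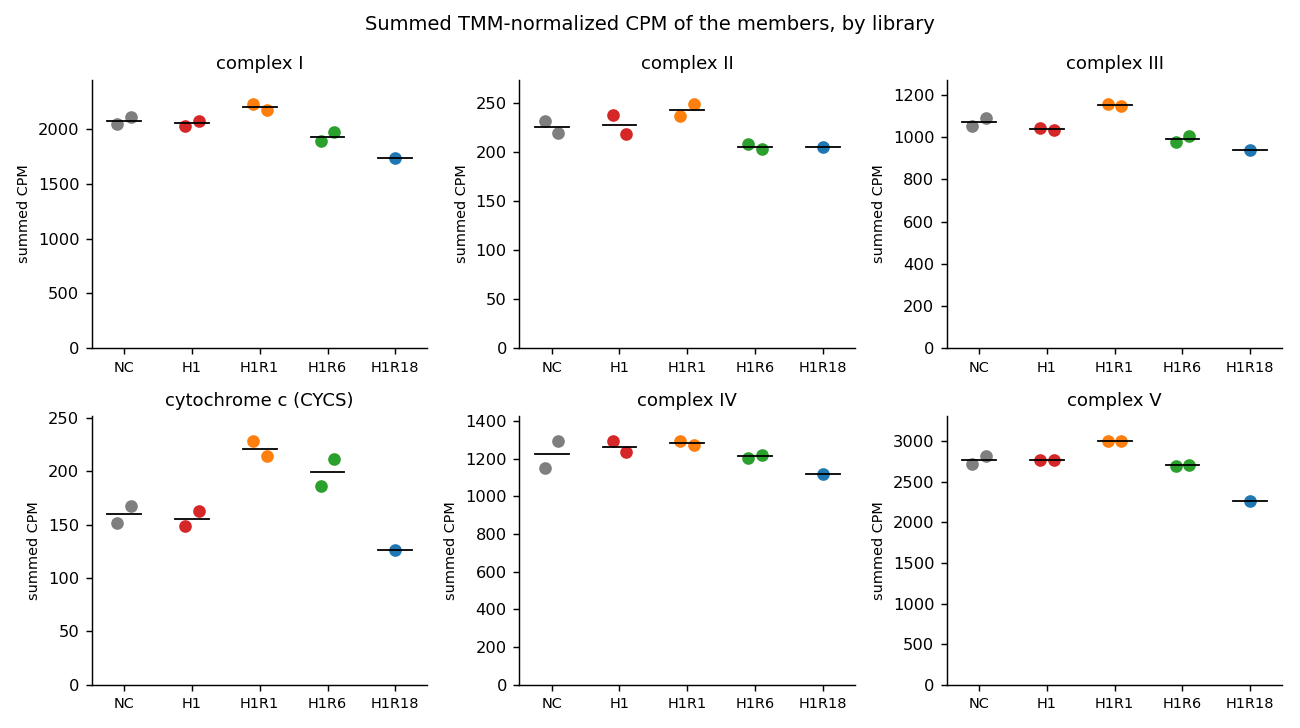
Summed TMM-normalized CPM of the members of each complex (y axis, from 0) in each library (points) by condition (x axis, in the order of the experiment), with the mean as a line. The H1R18 point is the lowest for complexes I, III, IV and V and for cytochrome c, and complex V stands at 2257 CPM there.

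At the end of the heat and through the first hours of recovery few members moved, and after 18 h of recovery more than 1 in 5 of them were lower. Against NC, 2 members rose and 0 fell at H1, with 3.43% of all genes tested called higher and 1.77% called lower (edgeR, adjusted p under 0.05). At H1 edgeR gave 5 members with an unadjusted p under 0.05 and a lower level, and DESeq2 called 0. At H1R1, 8 members (9.76%) rose and 1 (1.22%) fell, against 10.7% and 9.53% of all genes. At H1R6, 1 rose and 3 fell, against 3.0% and 4.03%. At H1R18, 1 rose and 18 fell, which is 1.22% and 22.0% of the members tested, against 4.58% and 6.43% of all genes. The median log2 fold change of the 82 members was -0.03 (H1), 0.11 (H1R1), -0.02 (H1R6) and -0.28 (H1R18), and over all genes tested it was -0.01, -0.01, -0.01 and -0.03. These 4 comparisons share the NC libraries and are given side by side for that reason.

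The shares of called genes were higher among well-counted genes, so both groups are also given for genes whose log2 CPM averaged 4 or more, which are 75 members and 9134 protein-coding genes, the members among them. At H1R1 9.33% of these members rose and 1.33% fell, against 19.1% and 13.5% of the protein-coding genes. The members' share was below that of the protein-coding genes in both directions, a difference that was not tested. At H1R6 1.33% rose and 2.67% fell, against 5.56% and 7.64%. At H1R18 1.33% rose and 22.7% fell, against 7.83% and 11.5%.

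**Figure D2:**
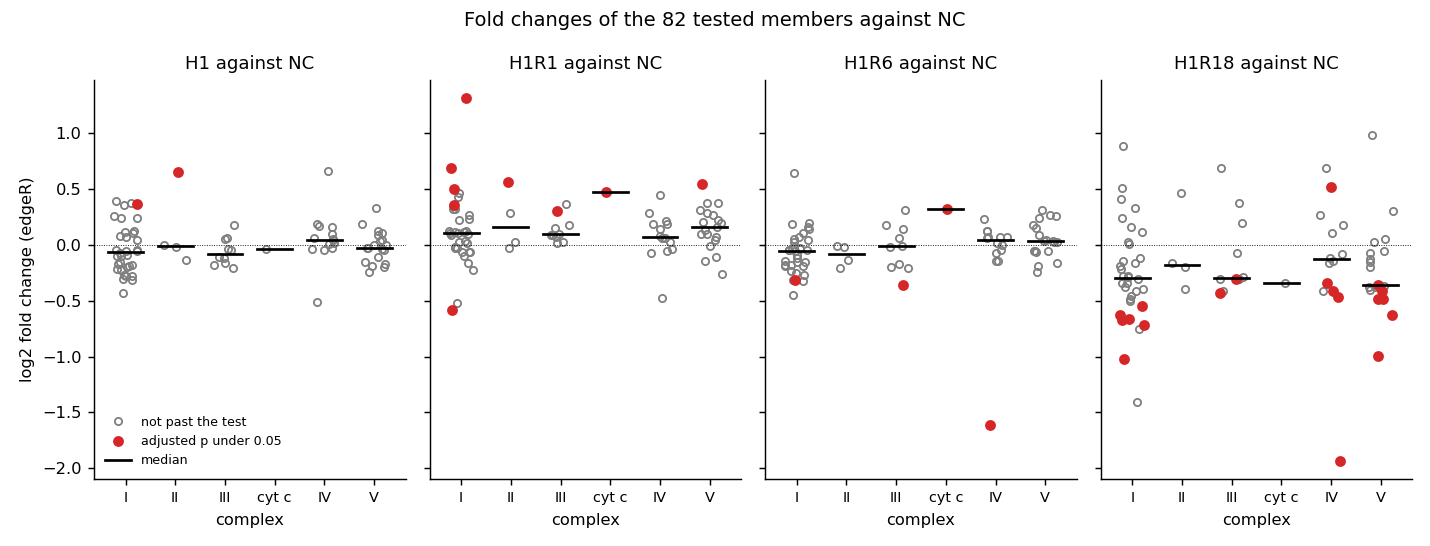
Log2 fold change against NC (y axis) of the 82 tested members by complex (x axis), with 1 panel for each later condition. Filled points passed edgeR's test, open points did not, and lines are medians. Most filled points lie under 0 in the panel of H1R18, where the medians run from -0.36 for complex V to -0.13 for complex IV.

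The fall at 18 h reached complexes I, III, IV and V. It was called in 6 of 34 genes of complex I, 0 of 4 of complex II, 2 of 10 of complex III, 4 of 14 of complex IV and 6 of 19 of complex V, and the median log2 fold changes were -0.29, -0.18, -0.30, -0.13 and -0.36. The H1R18 library lay below both NC libraries for 55 of the 82 members (67.1%), against 40.1% of all genes tested, and above both for 18 (22.0%), against 36.7%. It was the lowest of all 9 libraries for 41 members (50%), against 20.3% of all genes. Of the 18 lower members, 7 stayed called in every alternative analysis: NDUFA8, NDUFS3, ATP5F1B, ATP5IF1, ATP5MC1, ATP5MC3 and ATP5PB. Without NC replicate 2 the count of lower members was 9, and with DESeq2 in place of edgeR it was 10. DESeq2 did not call NDUFC1, NDUFS5, UQCRC1, COX5A, COX5B, COX7C, NDUFA4L2 and ATP5F1C at H1R18 (adjusted p 0.071 to 0.12), nor NDUFS3, NDUFS7, NDUFV2, SDHA, UQCRB and ATP5MG at H1R1 (adjusted p 0.0501 to 0.127).

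The members are mostly short and well-counted genes, and the H1R18 library differed from NC along exon length, so both groups are given by length. Among protein-coding genes whose log2 CPM averaged 4 or more, members with under 2000 exon bases had a median log2 fold change of -0.34 at H1R18 (26 genes), and the other genes of that length had -0.24 (429 genes). For 2000 to 5000 bases the medians were -0.30 for 33 members and -0.10 for 3016 other genes, and from 5000 bases on they were -0.15 for 16 members and -0.01 for 5614 other genes. Lower members were 7 of 26, 9 of 33 and 1 of 16 in these classes, or 17 of 75, and 22.1%, 13% and 9.78% of the other genes were lower. From 5000 bases on, the share of lower genes was thus smaller among the members than among the other genes. The members' median was below that of the other genes in each class, and both moved towards 0 with length. The part of length in the result was not tested. At H1 the other genes under 2000 bases had a median of -0.08, at H1R1 of 0.07 and at H1R6 of -0.02.

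**Figure D3:**
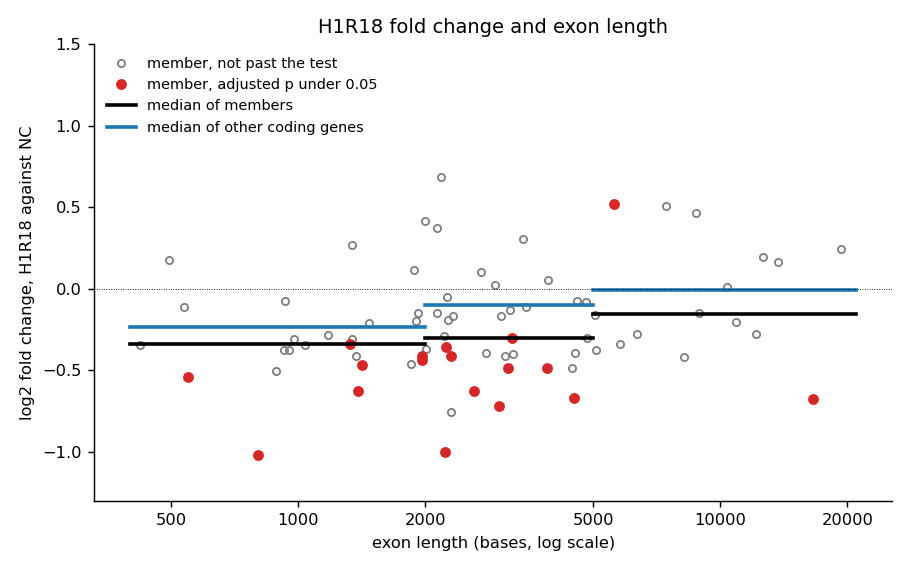
Log2 fold change of H1R18 against NC (y axis) and exon length in bases (x axis, log scale) for the 75 members whose log2 CPM averaged 4 or more, with medians of the members (black lines) and of other protein-coding genes (blue lines) in 3 classes of length. The black line is below the blue one in each class, at -0.34, -0.30 and -0.15 against -0.24, -0.10 and -0.01.

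Complex I is the entry for electrons from NADH and the largest of the complexes. Among its genes called at H1R18, NDUFA8 (ENSG00000119421, chromosome 9) had the largest fold change. It encodes an accessory subunit on the intermembrane space side of the membrane arm. NDUFA8 stood at 54.2 and 51.7 CPM in NC, 50.8 and 48.7 CPM at H1, 56.1 and 59.3 CPM at H1R1, 50.3 and 53.9 CPM at H1R6, and 26.2 CPM in the H1R18 library. The H1R18 library was thus far below 8 libraries that lay close together. NDUFA8 was lower at H1R18 than in NC by a log2 fold change of -1.02 (SE 0.19, edgeR adjusted p = 0.00032), and the call held in all 19 alternative analyses. Its promoter stretch, shown above, ends in the NRF-1 palindrome.

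Further genes of complex I were called at H1R18. NDUFS3, a core subunit of the matrix arm, stood at 35.4 CPM at H1R18 against 55.5 and 57.1 CPM in NC (log2 fold change -0.67, SE 0.17, edgeR adjusted p = 0.00781). At H1R1 it was also called against NC, higher, at 74.5 and 68.9 CPM (0.35, SE 0.12, adjusted p = 0.0351 in edgeR), a call that 8 of 20 alternatives lost, with any NC library or H1R1 replicate 1 left out among them (adjusted p 0.076 to 0.22). Of its exon bases 18.1% overlap CELF1 or PTPMT1, and reads that fit 2 genes were not counted. NDUFB6 and NDUFB9, accessory subunits of the distal membrane arm, stood at 58.5 and 52.6 CPM at H1R18. In NC NDUFB6 had 81.0 and 101 CPM and NDUFB9 had 77.5 and 91.3 CPM. Their log2 fold changes were -0.63 (SE 0.15, edgeR adjusted p = 0.00494) and -0.68 (SE 0.16, edgeR adjusted p = 0.0046), and both calls were lost without NC replicate 2 (adjusted p 0.0663 and 0.0538). NDUFC1 (-0.72, SE 0.22) and NDUFS5 (-0.54, SE 0.16), both accessory subunits, were also lower at H1R18 (edgeR adjusted p = 0.0284 and 0.0238). The NDUFC1 call was lost without either NC replicate (0.0761 and 0.07), and the NDUFS5 call without NC replicate 1 (0.233).

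NDUFA10, a kinase-like accessory subunit of the membrane arm, went the other way early. It stood at 155 and 146 CPM in NC, 190.2 and 199 CPM at H1, 211 and 214 CPM at H1R1, 159 and 185 CPM at H1R6 and 178 CPM at H1R18. Both H1 and both H1R1 libraries were above both NC libraries, and the H1R6 and H1R18 libraries lay between. NDUFA10 rose at H1 by 0.37 on the log2 scale (SE 0.09, edgeR adjusted p = 0.00882) and at H1R1 by 0.50 (SE 0.09, edgeR adjusted p = 9.8e-05). The H1R1 call held in all 20 alternatives, and the H1 call was lost without NC replicate 2 (0.0704) or H1 replicate 2 (0.108). At H1R6 it was lower than at H1R1, with a log2 fold change of -0.31 (SE 0.09, edgeR adjusted p = 0.0133), a call lost without either H1R1 replicate (0.0587 and 0.0612) or H1R6 replicate 1 (0.307).

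Of the subunits where electrons from NADH enter, NDUFV1 and NDUFV3 were called lower at different times, and NDUFV2 was called higher. NDUFV1, which binds NADH and FMN, stood at 148 and 152 CPM at H1R6 against 182 and 193 CPM in NC (log2 fold change -0.32, SE 0.09, edgeR adjusted p = 0.0192). The call was lost without NC replicate 2 (0.137) and without either H1R6 replicate (0.183 and 0.137). NDUFV3, an accessory subunit beside it, stood at 40.8 and 41.3 CPM at H1R1 against 64.8 and 57.4 CPM in NC, the only member that fell at that time (-0.58, SE 0.14, edgeR adjusted p = 0.00274, and 0.0573 without NC replicate 1). NDUFV2, an iron-sulfur core subunit, was counted low. It stood at 3.67 and 4.70 CPM in NC, 4.28 and 3.003 CPM at H1, 11.03 and 9.61 CPM at H1R1, 6.71 and 6.26 CPM at H1R6 and 7.70 CPM at H1R18. NDUFV2 rose at H1R1 by 1.32 (SE 0.36, edgeR adjusted p = 0.00826), a call lost without NC replicate 1 (0.0868) or H1R1 replicate 1 (0.0816). Its 288 counts over all libraries compare with 274 counts on its 1 annotated pseudogene, and reads that align to both were not counted, so its values are uncertain.

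NDUFS7, a core subunit that holds the last iron-sulfur cluster before ubiquinone, stood at 30.2 and 33.8 CPM at H1R1 against 19.4 and 20.4 CPM in NC. It was higher by 0.68 on the log2 scale (SE 0.19, edgeR adjusted p = 0.011), and the call was lost without NC replicate 1 (0.0761) or H1R1 replicate 2 (0.0695). Of its exon bases 51.4% overlap 2 genes on the opposite strand. Without strand, reads there fit more than 1 gene and were not counted. NDUFS1, another core subunit, had no call against NC and stood at 184 CPM at H1R18 against 215 and 231 CPM in NC. NDUFA3 and NDUFA6 had at most 2 counts in any library and were not tested. Such counts do not show that a gene was silent. The share of exon bases that overlap another gene was 0% for NDUFA6 and 6.06% for NDUFA3. Whether the rule that reads fitting several places or genes were left out touched them was not tested.

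Complex II oxidises succinate and belongs to both the citric acid cycle and the respiratory chain. SDHA, its flavoprotein, stood at 23.2 and 17.2 CPM in NC, 30.8 and 33.4 CPM at H1, 26.7 and 34.0 CPM at H1R1, 19.8 and 20.9 CPM at H1R6 and 28.2 CPM at H1R18. The H1 and H1R1 libraries were above both NC libraries, and the H1R6 libraries lay within the NC range. SDHA was higher at H1 by 0.65 (SE 0.19, edgeR adjusted p = 0.0417) and at H1R1 by 0.56 (SE 0.20, edgeR adjusted p = 0.0409). The H1 call was lost without NC replicate 2 (0.298) or either H1 replicate (0.118 and 0.234), and the H1R1 call without NC replicate 2 (0.278), H1R1 replicate 2 (0.27) or either H1 replicate (0.0518 and 0.0524). With DESeq2 neither call was made (0.198 and 0.123). SDHA is nearly repeated in 4 annotated pseudogenes, which held 2175 counts to its own 1189, and their summed level was 49.1 and 47.0 CPM in NC, 58.6 and 56.2 CPM at H1, 51.0 and 44.5 CPM at H1R1, 39.7 and 43.5 CPM at H1R6 and 35.2 CPM at H1R18. Their part in the SDHA values was not tested.

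The iron-sulfur subunit SDHB stood at 98.5 and 107 CPM in NC, 95.9 and 91.1 CPM at H1, 106 and 95.0 CPM at H1R1, 91.3 and 86.4 CPM at H1R6 and 91.3 CPM at H1R18. SDHC, a membrane anchor, stood at 76.3 and 62.1 CPM in NC, 75.9 and 62.9 CPM at H1, 68.0 and 74.1 CPM at H1R1, 61.5 and 65.4 CPM at H1R6 and 60.6 CPM at H1R18. SDHD, the other anchor, stood at 33.6 and 33.1 CPM in NC, 34.8 and 31.1 CPM at H1, 36.4 and 45.7 CPM at H1R1, 35.9 and 29.9 CPM at H1R6 and 25.4 CPM at H1R18. None of these 3 passed the test in any comparison, with log2 fold changes at H1R18 of -0.17 (SE 0.13), -0.20 (SE 0.16) and -0.39 (SE 0.23) against NC. Within 2 SE each of these values includes 0 and also the medians of complexes I and V.

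Complex III passes electrons from ubiquinone to cytochrome c. CYC1, its cytochrome that hands the electron on, stood at 173 and 163 CPM in NC, 149 and 161 CPM at H1, 171 and 173 CPM at H1R1, 130.2 and 132 CPM at H1R6 and 125 CPM at H1R18. The last 3 libraries were below all others. CYC1 was lower at H1R6 (-0.36, SE 0.09, edgeR adjusted p = 0.00706) and at H1R18 (-0.43, SE 0.11, edgeR adjusted p = 0.00894) than in NC. The H1R6 call was lost without NC replicate 1 or either H1R6 replicate (0.0894 to 0.0932), and the H1R18 call without NC replicate 1 (0.0533). At H1R6 against H1R1 its log2 fold change was -0.39 (SE 0.09, edgeR adjusted p = 0.00162), which held in all alternatives. UQCRC1, a core protein, was lower at H1R18, at 213 CPM against 262 and 266 CPM in NC (-0.31, SE 0.10, edgeR adjusted p = 0.0356), but 15 of 19 alternatives lost that call. UQCRB, which lies near the ubiquinone site, was higher at H1R1, at 107 and 113 CPM against 88.1 and 91.1 CPM in NC (0.30, SE 0.10, edgeR adjusted p = 0.0346), and 8 of 20 alternatives lost it. Leaving out any single library of NC, H1 or H1R6 ended the UQCRC1 call (0.0535 to 0.0947), and any single library of NC or H1R1 the UQCRB call (0.0636 to 0.148).

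UQCRH, the acidic hinge protein, and UQCRHL, its intronless copy, did not pass the test in any comparison. UQCRH stood at 139.9 and 160.5 CPM in NC, 141 and 127 CPM at H1, 159 and 159 CPM at H1R1, 142 and 155 CPM at H1R6 and 121 CPM at H1R18. UQCRHL stood at 23.7 and 19.8 CPM in NC, 22.8 and 22.6 CPM at H1, 20.05 and 29.3 CPM at H1R1, 20.8 and 28.5 CPM at H1R6 and 35.2 CPM at H1R18. Their H1R18 values lay on opposite sides of NC, with log2 fold changes of -0.31 (SE 0.12) and 0.68 (SE 0.25). Reads that fit both of these similar genes were not counted, and how many were left out cannot be told from the counts.

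CYCS encodes cytochrome c, which carries electrons between complexes III and IV and also starts the apoptosome when it leaves mitochondria. It stood at 152 and 167 CPM in NC, 148 and 162 CPM at H1, 228 and 214 CPM at H1R1, 186 and 211 CPM at H1R6, and 126 CPM at H1R18. The H1R1 and H1R6 libraries were all above the 4 earlier ones, and the H1R18 library was the lowest of all. CYCS did not differ past the test at H1 (log2 fold change -0.04, SE 0.09). It rose at H1R1 by 0.48 (SE 0.09, edgeR adjusted p = 0.00021), in all 20 alternatives, and was still higher at H1R6 by 0.32 (SE 0.09, edgeR adjusted p = 0.0231), a call lost without NC replicate 1 (0.159) or H1R6 replicate 2 (0.277). At H1R18 the value was -0.34 against NC (SE 0.12, edgeR adjusted p = 0.0566). Between neighbouring times CYCS rose at H1R1 against H1 by 0.51 (SE 0.09, edgeR adjusted p = 0.00018) and fell at H1R18 against H1R6 by 0.66 (SE 0.12, edgeR adjusted p = 0.00014), both in all alternatives. Its 42 annotated pseudogenes held 411 counts to its own 8175.

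**Figure D4:**
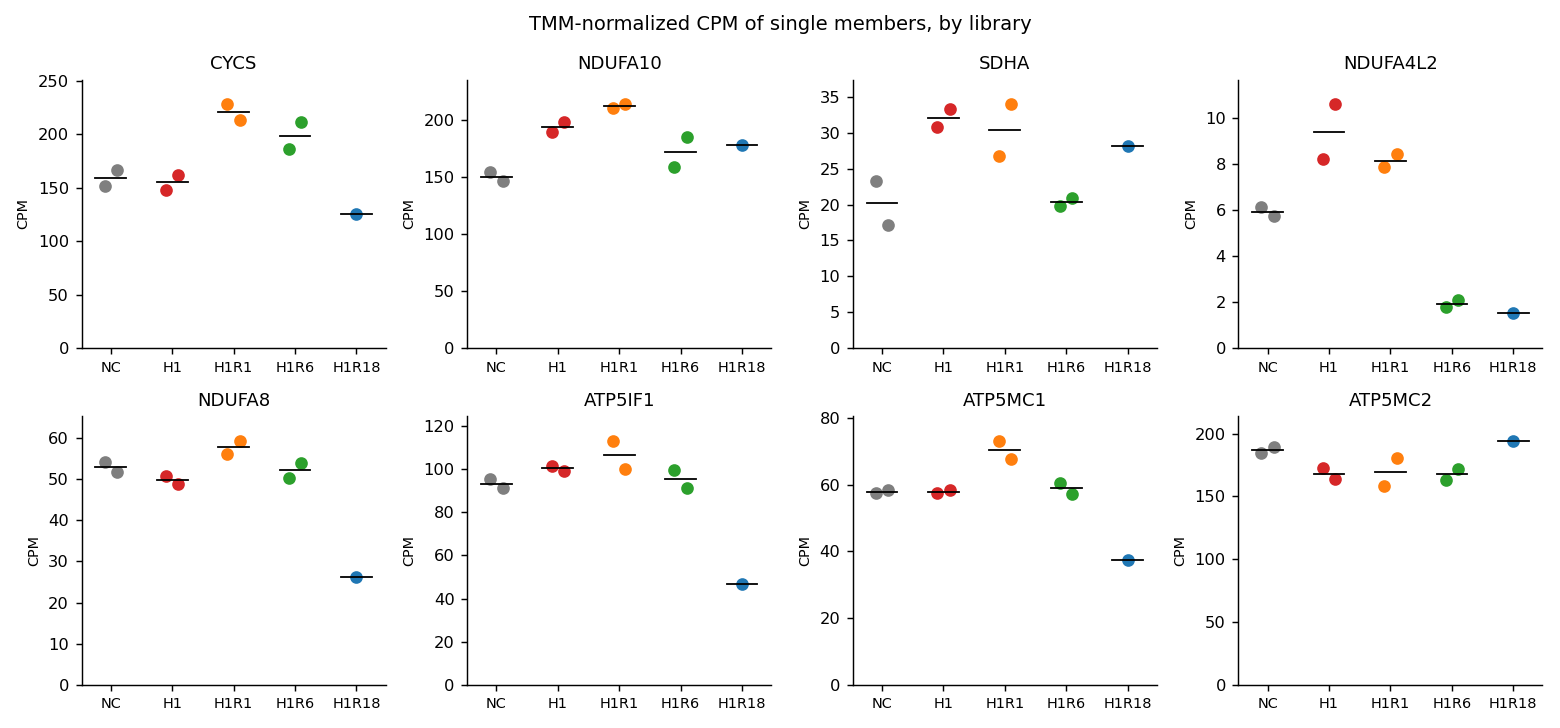
TMM-normalized CPM (y axes, from 0) of 8 members in each library (points) by condition (x axes, in the order of the experiment), with means as lines. CYCS and NDUFA10 are highest at H1R1, NDUFA4L2 drops to 1.77 and 2.09 CPM at H1R6, and NDUFA8, ATP5IF1 and ATP5MC1 are lowest in the single H1R18 library.

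Complex IV reduces oxygen. Of its nuclear subunits, COX5A, COX5B and COX7C, which are present in every cell type, were lower at H1R18. COX5B stood at 69.8 CPM at H1R18 against 90.1 and 103.9 CPM in NC (-0.47, SE 0.14, edgeR adjusted p = 0.0205), and the call was lost without NC replicate 2 (0.133). COX7C stood at 126 CPM against 151 and 185 CPM in NC (-0.41, SE 0.12, edgeR adjusted p = 0.0228), and was lost without NC replicate 2 (0.215). For COX5A, at 126 CPM against 159 and 160.2 CPM in NC (-0.34, SE 0.11, edgeR adjusted p = 0.0414), 15 of 19 alternatives lost the call, and any single library of NC, H1 or H1R6 left out was enough (0.0606 to 0.0942).

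COX7A2L was the one member that rose at H1R18. Its protein is a relative of the COX7A subunits that joins complexes III and IV into supercomplexes. It stood at 65.7 and 80.4 CPM in NC, 77.01 and 73.8 CPM at H1, 79.9 and 80.9 CPM at H1R1, 81.4 and 70.9 CPM at H1R6 and 104.2 CPM at H1R18. The log2 fold change was 0.52 against NC (SE 0.14, edgeR adjusted p = 0.0127, and 0.104 without NC replicate 1) and 0.45 against H1R6 (SE 0.14, edgeR adjusted p = 0.0239, and 0.18 without H1R6 replicate 2). Its partners were not called against NC at any time. COX7A2 stood at 80.3 and 101 CPM in NC, 92.5 and 93.3 CPM at H1, 103 and 84.4 CPM at H1R1, 102 and 95.4 CPM at H1R6 and 81.6 CPM at H1R18. COX7A1, the form of heart and skeletal muscle, had at most 8 counts in a library and was not tested.

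NDUFA4L2, a relative of NDUFA4 known as a target of the hypoxia-inducible factor, gave the largest fold change among the members. It stood at 6.12 and 5.74 CPM in NC, 8.20 and 10.6 CPM at H1, 7.85 and 8.44 CPM at H1R1, 1.77 and 2.09 CPM at H1R6, and 1.54 CPM at H1R18. The last 3 libraries lay apart from the first 6, at low counts. NDUFA4L2 was lower at H1R6 than in NC (-1.61, SE 0.42, edgeR adjusted p = 0.0135) and lower at H1R6 than at H1R1 (-2.06, SE 0.40, edgeR adjusted p = 0.00041), and the second call held in every alternative that could test it. The first was lost without NC replicate 1 (0.0863) or either H1R6 replicate (0.115 and 0.0851). At H1R18 it was -1.93 against NC (SE 0.60, edgeR adjusted p = 0.0339), lost without either NC replicate (0.0858 and 0.0582). NDUFA4 itself stood at 92.2 and 98.1 CPM in NC, 90.6 and 94.8 CPM at H1, 98.2 and 81.8 CPM at H1R1, 95.4 and 89.0 CPM at H1R6 and 87.8 CPM at H1R18, and passed no test.

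The other pairs of complex IV showed the common form counted and the tissue form at or near 0. COX4I1, the common form of subunit 4, stood at 191 and 197 CPM in NC, 229 and 204 CPM at H1, 205 and 201 CPM at H1R1, 181 and 208 CPM at H1R6 and 183 CPM at H1R18, and COX4I2, the lung form, had 0 counts in all libraries. COX6A1 stood at 38.7 and 40.7 CPM in NC, 44.7 and 45.7 CPM at H1, 43.3 and 47.1 CPM at H1R1, 48.6 and 44.3 CPM at H1R6 and 47.7 CPM at H1R18, and the muscle form COX6A2 had 0 counts. COX8A stood at 61.4 and 74.6 CPM in NC, 82.4 and 69.4 CPM at H1, 82.5 and 71.3 CPM at H1R1, 69.9 and 71.1 CPM at H1R6 and 76.5 CPM at H1R18, and COX8C had 0 counts. COX7B stood at 70.1 and 87.2 CPM in NC, 76.8 and 81.6 CPM at H1, 97.4 and 92.8 CPM at H1R1, 87.6 and 82.9 CPM at H1R6 and 69.8 CPM at H1R18, and COX7B2 had at most 2 counts. None of these 4 common forms was called in any comparison. COX6B1 stood at 58.7 and 74.6 CPM in NC, 72.4 and 69.6 CPM at H1, 81.0 and 72.2 CPM at H1R1, 63.6 and 75.8 CPM at H1R6 and 49.8 CPM at H1R18, with a call at H1R18 against H1R6 only (-0.49, SE 0.17, edgeR adjusted p = 0.0481), which 10 of 19 alternatives lost, among them those without H1R6 replicate 2 (0.277), either H1 replicate (0.0648 and 0.0699) or H1R1 replicate 2 (0.0505). COX6B2, the testis form, stood at 1.41 to 5.13 CPM and was not called.

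Complex V makes ATP. ATP5IF1 (ENSG00000130770, chromosome 1), whose protein blocks the enzyme when it runs backwards, changed most of all members by the adjusted p. It stood at 95.4 and 91.1 CPM in NC, 101 and 99.3 CPM at H1, 113 and 99.9 CPM at H1R1, 99.6 and 91.3 CPM at H1R6 and 46.7 CPM at H1R18. The H1R18 library was far below the other 8, which overlapped across conditions. ATP5IF1 was lower at H1R18, with a log2 fold change of -0.999 against NC (SE 0.14, edgeR adjusted p = 1.3e-05) and of -1.03 against H1R6 (SE 0.14, edgeR adjusted p = 5.5e-06), in all alternatives.

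The genes of the alpha and beta subunits of the catalytic head, ATP5F1A and ATP5F1B, had the highest CPM in complex V. ATP5F1B, the catalytic beta subunit, stood at 889 and 947 CPM in NC, 954 and 943 CPM at H1, 996 and 1017 CPM at H1R1, 889 and 876 CPM at H1R6 and 716 CPM at H1R18. It had the highest level of all members also per exon length, with 397 and 423 CPM per kb in NC. It was lower at H1R18 than in NC (log2 fold change -0.36, SE 0.07, edgeR adjusted p = 0.00129), in all alternatives. ATP5F1C, the gamma subunit that turns inside the head, stood at 101 CPM at H1R18 against 132 and 138 CPM in NC (-0.41, SE 0.12, edgeR adjusted p = 0.0221, and 0.0865 without NC replicate 2). ATP5F1A, the alpha subunit, stood at 367 CPM against 408 and 437 CPM in NC, with a log2 fold change of -0.20 (SE 0.09) that did not pass the test. ATP5PB, the b subunit of the stalk that holds the head still, stood at 112 CPM against 157 and 156 CPM in NC (-0.48, SE 0.13, edgeR adjusted p = 0.00949), in all alternatives.

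ATP5MC1, ATP5MC2 and ATP5MC3 encode the same mature subunit of the rotating c-ring behind different import sequences, and they differed at H1R18. ATP5MC1 stood at 57.5 and 58.4 CPM in NC, 57.6 and 58.3 CPM at H1, 73.2 and 67.8 CPM at H1R1, 60.4 and 57.4 CPM at H1R6 and 37.5 CPM at H1R18. ATP5MC3 stood at 219 and 223 CPM in NC, 234 and 207 CPM at H1, 253 and 261 CPM at H1R1, 225 and 228 CPM at H1R6 and 158 CPM at H1R18. ATP5MC2 stood at 185 and 189.7 CPM in NC, 172 and 164 CPM at H1, 158 and 181 CPM at H1R1, 163 and 172 CPM at H1R6 and 194 CPM at H1R18. The H1R18 library was the lowest of 9 for ATP5MC1 and ATP5MC3 and the highest for ATP5MC2. The log2 fold changes of H1R18 against NC were -0.63 for ATP5MC1 (SE 0.17, edgeR adjusted p = 0.0114), -0.49 for ATP5MC3 (SE 0.10, edgeR adjusted p = 0.00192) and 0.05 for ATP5MC2 (SE 0.11, edgeR adjusted p = 0.814), and the difference between the genes was not tested. Both calls held in all alternatives.

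ATP5MG, subunit g of the membrane part and the ATP synthase gene that the study follows as ATP5L, stood at 23.9 and 22.4 CPM in NC, 27.6 and 30.7 CPM at H1, 35.4 and 32.1 CPM at H1R1, 29.7 and 25.9 CPM at H1R6 and 23.6 CPM at H1R18. It rose at H1R1 by 0.55 (SE 0.18, edgeR adjusted p = 0.0282), and the call was lost without either NC replicate (0.0779 and 0.112) or H1R1 replicate 1 (0.182), with DESeq2 (0.103) and with scaling by library size alone (0.0532). At H1 the value was 0.33 (SE 0.18) and at H1R18 0.03 (SE 0.24), and neither passed the test. It was the only gene of complex V called against NC before 18 h.

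Between neighbouring times, 5 members rose and 0 fell at H1R1 against H1, where 6.35% of all genes were called higher and 5.08% lower. Without adjustment, edgeR had 1 lower member at a p under 0.05, and DESeq2 called 0. The 5 were CYCS, NDUFV2, NDUFB1 (0.65, SE 0.17), NDUFB10 (0.40, SE 0.11) and ATP5MK (0.55, SE 0.16), the last 3 small accessory subunits of complexes I and V. Apart from CYCS, each of these calls was lost without H1R1 replicate 1 (adjusted p 0.0685 to 0.294). Those of NDUFB1, NDUFB10 and ATP5MK were lost without H1 replicate 1 as well (0.168 to 0.253), and those of NDUFV2 and ATP5MK without H1 replicate 2 (0.0913 and 0.0542). At H1R6 against H1R1, 0 members rose and 12 (14.6%) fell, against 6.43% and 8.93% of all genes. Among genes whose log2 CPM averaged 4 or more the share that fell was 14.7% of the members and 16.4% of the protein-coding genes, so at this level of counts the members' share was not above the background. At an unadjusted p under 0.05 edgeR had 1 higher member, and DESeq2 called 0. The 12 were 5 genes of complex I (NDUFA5, NDUFA10, NDUFS5, NDUFS7 and NDUFS8), SDHA, 3 of complex III (CYC1, UQCRB and UQCRC1), NDUFA4L2, ATP5F1A and ATP5F1B. The fall of CYC1 and NDUFA4L2 was called in every alternative that could test it, and with scaling by library size alone the count of lower members was 2. Each of the other 10 calls was lost without at least 1 H1R6 library, and the count was 3 to 12 with 1 library left out. At H1R18 against H1R6, 2 members rose and 19 (23.2%) fell, against 6.28% and 7.65% of all genes (25.3% of members and 13.9% of protein-coding genes lower at that level of counts). Of these 19, 8 were of complex I and 8 of complex V, with CYCS, UQCRFS1 and COX6B1, and the members that rose were COX7A2L and NDUFA5 (0.49, SE 0.16, lost without either H1 or H1R6 replicate, 0.06 to 0.147). With 1 library left out 10 to 20 members were lower. ATP5MK, a membrane subunit of the ATP synthase dimer, stood at 35.3 and 50.9 CPM in NC, 34.2 and 41.5 CPM at H1, 60.3 and 49.9 CPM at H1R1, 57.0 and 48.8 CPM at H1R6 and 32.8 CPM at H1R18.

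Other gene lists of the same pathway were chosen with the earlier results known and are given as counts. Of 54 assembly factors, all tested, 1 rose and 1 fell at H1, 8 rose and 2 fell at H1R1, 2 rose and 1 fell at H1R6 and 2 rose and 1 fell at H1R18, with a median log2 fold change at H1R18 of -0.21. Of all genes tested, the share that rose was 3.43% (H1), 10.7% (H1R1), 3.0% (H1R6) and 4.58% (H1R18), and the share that fell was 1.77%, 9.53%, 4.03% and 6.43%. The other lists are read against the same shares. COX20, a chaperone of a mitochondrially encoded subunit of complex IV, rose at H1 (1.43, SE 0.24, edgeR adjusted p = 0.00013) and stood at 26.2 and 32.9 CPM there against 11.8 and 9.92 CPM in NC. ATPAF1, which helps build the head of the ATP synthase, stood at 68.3 CPM at H1R18 against 110.1 and 114 CPM in NC (-0.72, SE 0.13, edgeR adjusted p = 0.0002).

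A list of 13 regulators held factors of the nuclear respiratory genes, and also TFAM, TFB1M, TFB2M and POLRMT, which act in expression of the mitochondrial genome. Of the 13, 6 rose at H1R1, TFAM and TFB2M among them, and 2 fell, TFB1M among them (10.7% and 9.53% of all genes). Then 4 rose, TFB2M among them, and 0 fell at H1R6 (3.0% and 4.03% of all genes), and 1 rose and 1 fell at H1R18. At H1 edgeR called 0, with 3 higher at an unadjusted p under 0.05, and DESeq2 called 0. At H1R1 YY1, at 323 and 294 CPM against 201 and 169 CPM in NC, had a log2 fold change of 0.74 (SE 0.09, edgeR adjusted p = 1.2e-07). The co-activator PPRC1 had 0.80 (SE 0.12, edgeR adjusted p = 5.4e-06) and GABPB1, a subunit of GABP, 0.98 (SE 0.18, edgeR adjusted p = 0.00017). GABPB2, also of GABP, was the other gene that fell at H1R1 (-0.53, SE 0.16, edgeR adjusted p = 0.0167). DESeq2 called 5 of the 13 higher at H1R1 and 0 lower. NRF1, the gene of NRF-1, was not called against NC at any time. Its level was 26.4 and 24.6 CPM at H1R1 against 32.4 and 24.0 CPM in NC. TFAM, which packs and transcribes mitochondrial DNA, stood at 113 and 118 CPM in NC, 134 and 129 CPM at H1, 154 and 157 CPM at H1R1, 120.1 and 119.6 CPM at H1R6 and 55.4 CPM at H1R18. It was lower at H1R18 than in NC (log2 fold change -1.06, SE 0.13, edgeR adjusted p = 6.6e-07), while the co-activator PPARGC1A was higher at 18.0 CPM against 6.93 and 7.83 CPM in NC (1.29, SE 0.35, edgeR adjusted p = 0.0151, 0.0694 without NC replicate 1 and 0.0666 with DESeq2).

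Of 24 genes of mitochondrial protein import 21 were tested. At H1R1 8 rose (10.7% of all genes), at H1R6 1 rose and 1 fell, and at H1R18 5 fell (6.43% of all genes), with median log2 fold changes of 0.24 (H1R1) and -0.27 (H1R18). GRPEL1, the exchange factor of the mitochondrial HSP70, stood at 69.9 and 65.8 CPM in NC, 74.9 and 82.7 CPM at H1, 119 and 120.3 CPM at H1R1, 73.1 and 85.9 CPM at H1R6 and 48.2 CPM at H1R18. It was higher at H1R1 (0.82, SE 0.11, edgeR adjusted p = 1.4e-06) and lower at H1R18 (-0.49, SE 0.15, edgeR adjusted p = 0.0323) than in NC, and 6 of 19 alternatives lost the second call, among them those without NC replicate 1 (0.128) or H1 replicate 2 (0.0507) and DESeq2 (0.11). HSPA9, that HSP70 itself, was also higher at H1R1 (0.36, SE 0.07, edgeR adjusted p = 0.00021) and lower at H1R18 (-0.47, SE 0.09, edgeR adjusted p = 0.00029). At H1 edgeR called 0 of the 21, with 3 at an unadjusted p under 0.05, and DESeq2 called 0.

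Of 14 genes of the citric acid cycle OGDH and IDH2 fell at H1R1 (by 0.38 and 0.32 on the log2 scale) and at H1R6 (by 0.41 each), and the dehydrogenase subunit DLD fell at H1R18 (-0.58, SE 0.13, edgeR adjusted p = 0.00274). The OGDH and IDH2 calls were lost without NC replicate 1 at both times (edgeR adjusted p 0.116 to 0.266), and DESeq2 made none of them. The OGDH calls were also lost without any 1 of the H1R1 or H1R6 libraries (0.0535 to 0.208), and those of IDH2 without H1R1 replicate 1 (0.323), either H1 replicate (0.0553 and 0.054) or H1R6 replicate 2 (0.287). At H1 edgeR called 0, with 2 at an unadjusted p under 0.05, and DESeq2 called 0.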

How the data were processed

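The authors deposited 1 table of raw counts per gene for 9 HEK293T libraries (total RNA, ribosomal RNA removed). Per the file headers and the submitters' processing notes, cutadapt 4.1, HISAT2 2.2.1 and featureCounts 2.0.2 were used on Ensembl 104 (GRCh38), counting each read of a pair, without strand, and leaving out reads that fit several places or genes. The notes also name FastQC 0.11.8 and DESeq2 1.38.3. Conditions came from the sample labels. Genes were filtered with filterByExpr (minimum count 10, minimum total 15) and tested with edgeR 4.0.16 in R 4.3.3 (quasi-likelihood, TMM scaling, 1 coefficient per condition over all 9 libraries), with Benjamini-Hochberg adjustment over 21139 genes and a threshold of 0.05. The SE is the log2 fold change divided by the square root of F. DESeq2 1.42.0 served as an alternative. Errors between libraries rest on a common coefficient of variation of 0.0905. Names came from a gene name table (60463 identifiers, 99.7%), and gene types from GENCODE 29. Tables and plots used Python 3.11.15, pandas 2.3.3 and matplotlib 3.10.9, and the test was tried on simulated data.

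The members and lists were chosen with earlier results of these data known. Values per library are given for members called against NC with a log2 fold change of at least 0.5 in size (at most the 3 with the smallest adjusted p in a complex and comparison), the SDH genes, CYC1, CYCS, ATP5MG, ATP5IF1 and pairs of similar genes. Other members named were chosen after their values were seen. From other lists at most the 3 genes with the smallest adjusted p in a comparison were named. TFAM, TFB1M, TFB2M, GABPB2, PPARGC1A, HSPA9 and GRPEL1 were named besides where a call is described. NRF1 was named as the gene of a factor whose motif was searched. The same replicate number did not pair libraries: correlations of their deviations ran from -0.03 to 0.04.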

Additional observations from a re-analysis of the deposited data

Results flagged for a closer look

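Steps between neighbouring conditions were compared within the same fit. For the genes that the rule above chose to be given with values per library, 15 steps passed edgeR's test. Calls in other members, such as NDUFA10, NDUFB1 and NDUFA5, are described above and are not among the 15. At H1R1 against H1, CYCS had a log2 fold change of 0.51 and NDUFV2 of 1.503. At H1R6 against H1R1 the values were -0.39 for CYC1, -2.06 for NDUFA4L2, -0.58 for NDUFS7 and -0.57 for SDHA. At H1R18 against H1R6, where the later condition is 1 library, ATP5IF1 had -1.03, ATP5MC1 had -0.65, ATP5MC3 had -0.52, COX6B1 had -0.49, CYCS had -0.66, NDUFA8 had -0.99, NDUFB6 had -0.57 and NDUFB9 had -0.50. COX7A2L was the exception among these genes, at 0.45. The part of exon length, of pseudogene copies or of the depth of the H1R18 library (3822165 counts) in these values was not tested.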

How the results depend on the processing

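Of the alternative values for the 82 tested members, 10958 kept their side of the threshold, 258 lost a call, 49 gained one and 0 called values changed direction. Most of the 10958 belong to members that were not called and so had no call to lose. The 258 are thus to be read against the called values only. Counts of higher members moved as follows: at H1 against NC (2) to 1 with only the conditions compared and 1 with DESeq2; at H1R1 against NC (8) to 5 with upper-quartile factors, 4 with library size only, 5 with no filter and 2 with DESeq2; at H1R18 against NC (1) to 2 with at least 10 counts in every library, with only the conditions compared and with protein-coding genes; at H1R1 against H1 (5) to 2 with DESeq2; at H1R6 against H1R1 (0) to 1 with library size only and with protein-coding genes; and at H1R18 against H1R6 (2) to 0 with no filter and 0 with DESeq2. Counts of lower members moved at H1R18 against NC (18) to 10 with DESeq2, at H1R6 against H1R1 (12) to 6 with upper-quartile factors, 2 with library size only, 3 with no filter and 6 with DESeq2, and at H1R18 against H1R6 (19) to 9 with DESeq2. The cause was not tested. With 1 library left out, higher and lower members ranged over 0 to 2 and 0 to 1 at H1, 4 to 9 and 0 to 1 at H1R1, 0 to 1 and 0 to 3 at H1R6, and 1 and 9 to 18 at H1R18 against NC. Between neighbouring times they ranged over 1 to 6 higher (H1R1), 3 to 12 lower (H1R6), and 0 to 2 higher and 10 to 20 lower (H1R18). Leaving out H1R18 removes its comparisons. No clear pattern shared by replicate number was seen, which cannot decide whether the libraries were paired. With the replicate number as a block, 13 members were lower at H1R18 against NC, and at H1R18 against H1R6 1 was higher and 14 lower. Upstream of the start alone, the motifs stood in 3.57% (NRF-1), 17.9% (its core), 22.6% (ETS), 2.38% (YY1) and 0% (heat shock element) of member windows, against 1.03%, 2.63%, 8.52%, 0.65% and 0.44% of all windows. For windows of protein-coding genes the shares were 1.28%, 3.26%, 10.7%, 0.75% and 0.36%, in that order. The YY1 share upstream of the start came from 2 windows of 1 member, ATP5PF, whereas 9 members held this motif in the whole window. Members with few counts, such as NDUFV2, NDUFA7 and COX6B2, have an SE of 0.35 or more, so moderate changes could not be seen at this depth.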

Other observations

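Protein synthesis genes give a further pair of groups beside the members. Of 78 mitochondrial ribosomal protein genes 76 were tested. At H1R18 against NC 3 rose and 10 fell, with a median log2 fold change of -0.18, and at H1R1 9 rose and 1 fell, with a median of 0.18. Of 86 cytosolic ribosomal protein genes 81 were tested, and at H1R18 4 rose and 1 fell, with a median of 0.07. At H1R6 1 of them rose and 17 fell, with a median of -0.12. The shares called are read beside those of all genes at the same times, which were 10.7% higher and 9.53% lower (H1R1), 3.0% higher and 4.03% lower (H1R6), and 4.58% higher and 6.43% lower (H1R18). The differences between these groups and the members were not tested.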
